A study of Mus musculus with 6 samples.

Results

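The apicobasal polarity complexes are the protein modules that set apart the apical and the basolateral membrane of an epithelial cell. Their genes were taken by name from the table of this study: Pard3, Pard6b, Pard6g, Prkci, Prkcz, Crb3, Llgl1, Llgl2 and Scrib. All 9 were among the 12803 genes listed, and all 9 passed the filter on low values. The samples were 6 messenger RNA libraries of cultured mouse kidney podocyte cells, each made from 100 ng of total RNA. WT stands for 3 libraries of the murine podocyte line that the labels name Mundel, with the genotype WT, and KO for 3 libraries of a line described as podocyte-derived with the genotype Myosin 1e KO. The labels give no treatment, time, culture temperature or state of differentiation for either group, and they do not state that the KO line came from the Mundel line. A heterozygous genotype, also named in the design, was not analysed here. Each genotype was 1 cell line, so genotype and any other difference between these lines cannot be told apart. The labels call the replicates biological but do not describe separate cultures, so p-values reflect the spread among these libraries, which may be technical.

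Apicobasal polarity rests on 2 apical modules, which bind each other, and a basolateral module, which the apical ones exclude and are excluded by. In the PAR complex, the scaffold PAR3 (Pard3) and the adaptor PAR6 (Pard6a, Pard6b, Pard6g) bind an atypical protein kinase C (aPKC, encoded by Prkci and Prkcz), which the small GTPase Cdc42 activates through PAR6. The Crumbs complex, with a short transmembrane protein such as Crb3 and the adaptors Pals1 and Patj, marks the apical side. The Scribble module, made of Scribble (Scrib), the LGL proteins (Llgl1, Llgl2) and the DLG scaffolds, marks the basolateral side, and aPKC removes LGL proteins from the apical membrane by phosphorylating them. In podocytes of the kidney, the PAR complex associates with nephrin and its relatives at the slit diaphragm, and aPKC is needed to keep the foot processes.

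The listed genes held 35447096 to 42106461 reads per library, and 3 reads equalled 0.0703 to 0.0856 CPM (counts-per-million). Myo1e, the gene named in the KO label, was at 16.3 to 18.9 CPM in the KO libraries and at 168 to 184 CPM in the WT libraries, so it was lower in all 3 KO libraries but still read in each. Of 12616 genes tested over the table, 68.1% passed between the lines. Both lines were checked against markers. Among podocyte markers 6 were tested (2 rose and 3 fell), with a summed level of 620 to 828 CPM in KO and 1166 to 1386 CPM in WT, while Nphs1 and Ptpro were not analysed here. All 8 markers of simple epithelium rose, from a summed 1.53 to 2.65 CPM in WT to 6613 to 7087 CPM in KO. Of 8 mesenchymal markers 6 fell, among them Vim (2168 CPM in WT and 3.44 in KO) and Cdh11 (306 and 1.07), and Fn1 and Cdh2 rose. They had a summed level of 8445 to 14031 CPM in KO and 7039 to 7527 CPM in WT of which fibronectin (Fn1) made most in both lines, and their median log2 fold change was -4.36. None of 4 endothelial markers and only Cd68 of 4 leukocyte markers was listed, the latter at 2.04 to 2.57 CPM in KO and 1.94 to 3.44 CPM in WT. The epithelial and mesenchymal markers moved between the same libraries as every difference below, and their part in those differences was not tested.

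The comparison of the lines asks how the transcripts of podocyte cells labelled as lacking Myosin 1e, a membrane-binding motor mutated in nephrotic syndrome, differ from those of WT podocytes. Among the polarity genes, the apical regulator Crb3 and the kinase gene Prkcz were more than 10 times higher in the KO line. Pard6b, Llgl2 and Llgl1 were also higher, and Pard6g and Scrib were lower. The scaffold gene Pard3 and the major kinase gene Prkci did not pass the test. In all, 5 of the 9 rose, 2 fell and 2 did not pass (limma, adjusted p under 0.05), which makes 77.8% called against 68.1% of all tested genes (34.3% higher and 33.8% lower). The median log2 fold change (KO minus WT) was 0.57 over the 9 and 0.01 over all tested genes. A change of at least 2-fold was called in 4 of the 9, and in 27.9% of the genes tested. The groups did not overlap in 7 of the 9, and in 73.5% of the genes tested. The 9 were chosen with earlier results of these data known, so no conclusion is drawn from these shares.

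**Figure D1:**
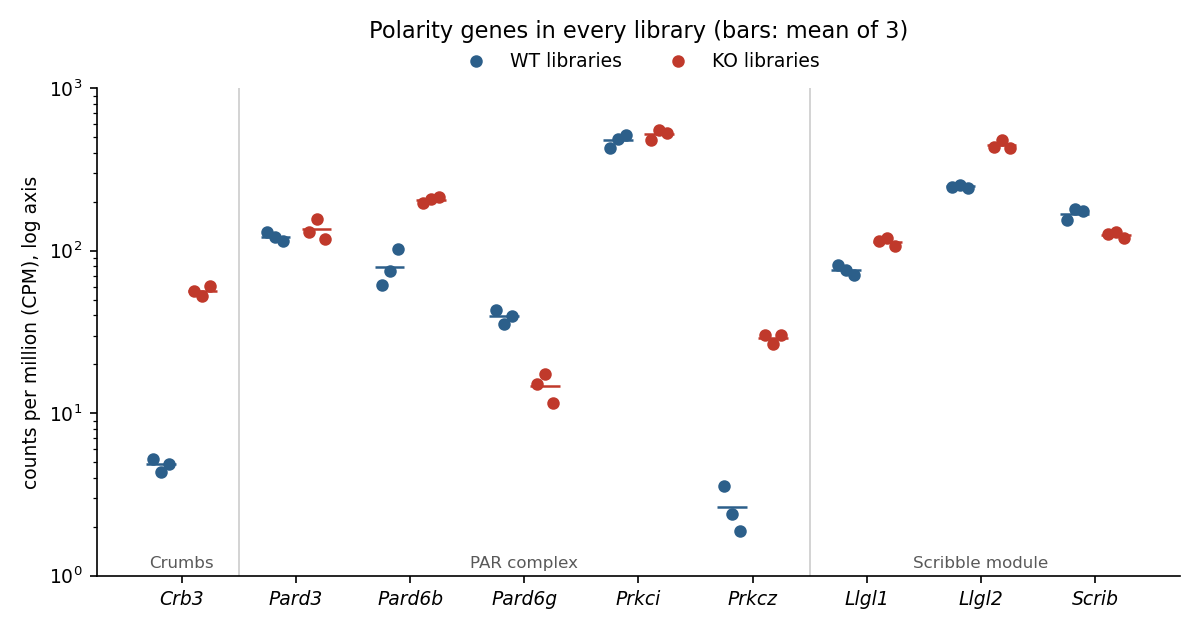
Level of each polarity gene in CPM (log axis) in the 3 WT and the 3 KO libraries, with a bar at the mean of each group and the genes ordered by complex. Crb3 and Prkcz lie between 1.89 and 5.25 CPM in WT and between 26.8 and 60.8 CPM in KO, while the points of Pard3 and of Prkci overlap between the lines.

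The Crumbs member Crb3 encodes a small apical transmembrane protein whose cytoplasmic tail recruits Pals1 and PAR6. It lies at chr17:57059105-57065918 on the plus strand (GRCm38, ENSMUSG00000044279). It was at 56.3, 52.8 and 60.8 CPM in KO libraries 1 to 3 and at 5.25, 4.37 and 4.89 CPM in WT libraries 1 to 3. All 3 KO libraries were high and all 3 WT libraries low, with no overlap and little spread within either line. The means were 56.6 ± 4.0 CPM in KO and 4.84 ± 0.44 CPM in WT (SD, n = 3 each), an 11.7-fold difference. The difference between the lines was 3.54 on the log2 scale (SE 0.11, limma adjusted p = 5.4e-08). The WT level rested on 224, 169 and 173 reads, so the gene was read in every WT library. In the annotation, 14 of its 1564 exonic bases are shared with Dennd1c on the opposite strand.

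The aPKC genes of the PAR complex behaved differently from each other. Prkci, which encodes the iota/lambda kinase, lies at chr3:30995747-31052959 on the plus strand (ENSMUSG00000037643). It was at 481, 552 and 532 CPM in KO libraries 1 to 3 and at 430, 487 and 516 CPM in WT libraries 1 to 3. The groups overlapped, with the highest WT library above the lowest KO library. The log2 fold change was 0.13 with a 95% interval of -0.10 to 0.36 (limma adjusted p = 0.29), so a rise of more than 0.36 or a fall of more than 0.10 on the log2 scale lies outside that interval. Prkcz, which encodes the zeta kinase, lies at chr4:155260129-155361361 on the minus strand (ENSMUSG00000029053). It was at 30.5, 26.8 and 30.2 CPM in KO libraries 1 to 3 and at 3.58, 2.41 and 1.89 CPM in WT libraries 1 to 3. Every KO library exceeded every WT library by a wide margin, and the WT values, from 153, 93 and 67 reads, spread 1.89-fold among themselves. The means were 29.2 ± 2.1 and 2.63 ± 0.87 CPM (SD, n = 3 each), an 11.1-fold difference, with a log2 fold change of 3.51 and an SE of 0.22 (limma adjusted p = 2.2e-06). Prkcz also has internal starts, from which a kinase form without the regulatory part is made in brain. The reads are given per gene, so the starts in use were not resolved.

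The PAR6 genes Pard6b and Pard6g moved in opposite directions. The third, Pard6a, is a partner gene here and was chosen for mention after its values were seen. It fell to 6.61 ± 0.92 from 10.1 ± 1.5 CPM (SD, n = 3 each, log2 fold change -0.61, limma adjusted p = 0.0095). Pard6b, an adaptor that joins aPKC to Cdc42, lies at chr2:168081004-168101203 on the plus strand (ENSMUSG00000044641). It was at 197, 209 and 213 CPM in KO libraries 1 to 3 and at 61.7, 74.6 and 102 CPM in WT libraries 1 to 3. The KO values lay close together and above all WT values, which spread 1.66-fold. The difference between the lines was 1.41 on the log2 scale (SE 0.16, limma adjusted p = 9.1e-05), with means of 206 ± 8.6 and 79.5 ± 21 CPM (SD, n = 3 each). Its paralog Pard6g lies at chr18:80046890-80119639 on the plus strand (ENSMUSG00000056214). It was at 15.2, 17.5 and 11.5 CPM in KO libraries 1 to 3 and at 43.2, 35.5 and 39.6 CPM in WT libraries 1 to 3. All KO values lay below all WT values, with a 1.52-fold spread in KO. The difference between the lines was -1.43 on the log2 scale (SE 0.16, limma adjusted p = 7e-05), a drop to 37.4% of the WT mean.

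Pard3 encodes the PDZ scaffold that places PAR6 and aPKC at cell junctions. It lies at chr8:127063893-127612286 on the plus strand (ENSMUSG00000025812). It was at 131, 158 and 118 CPM in KO libraries 1 to 3 and at 131, 121 and 114 CPM in WT libraries 1 to 3. The groups overlapped, and only KO library 2 lay well above the WT range. The log2 fold change was 0.14 with a 95% interval of -0.12 to 0.41 (limma adjusted p = 0.29).

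**Figure D2:**
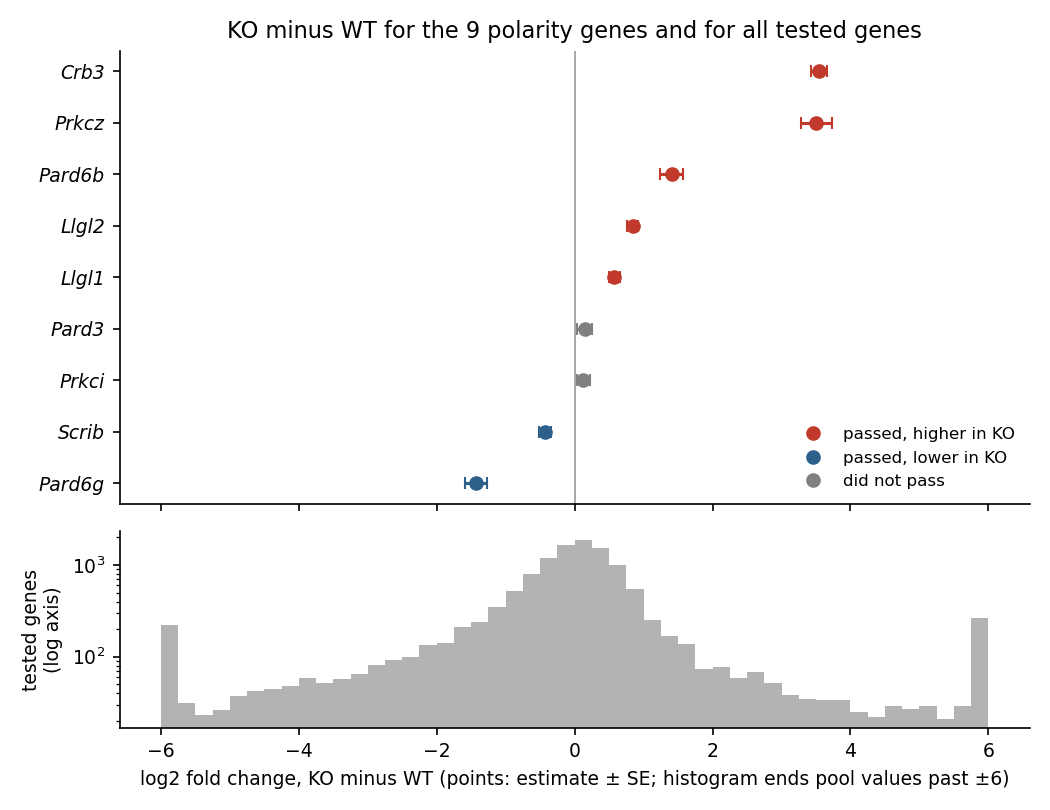
Upper panel, log2 fold change of each polarity gene, KO minus WT, with bars of 1 SE, coloured by whether it passed and in which direction. Lower panel, the same quantity for the 12616 tested genes as counts per bin (log axis). Crb3 (3.54) and Prkcz (3.51) lie far to the right, Pard6g (-1.43) to the left, and Pard3 and Prkci near 0.

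The sequences before the transcript starts of 5 members are shown because the members differ there in a motif bound by repressors of epithelial genes. Those of Pard3, which did not pass the test, are not printed, although the window of its second start held 3 matches. The printed set therefore does not show whether the motif goes with a rise. The promoter windows came from RefSeq (GRCm38.p6) and ran from 250 bases before to 50 bases after a start. The search covered 10 such windows of 6 members at RefSeq starts. Windows of Llgl2, Scrib and Pard6g were not analysed here, so neither of the members that fell, Pard6g and Scrib, was searched. The motifs searched on both strands were CACCTG, the E-box that Zeb and Snail repressors bind, which reads CAGGTG on the other strand, and AACCGGTT, a grainyhead-like site that reads the same on both strands. The E-box was in 18.2% of the 12878 windows of listed genes, at least 2 E-boxes in 2.5% and at least 4 in 0.0621% (8 windows). Those 8 include both windows of Crb3, which overlap and share their matches. The grainyhead-like letters were in 0.225% of the 12878 windows and in none of the 10. The 250 bases before the start follow, 5′ to 3′ on the strand of the gene, with E-box letters in capitals. They are chr17:57061951-57062200 (plus strand) for Crb3, chr4:155361429-155361678 (minus strand) for the most upstream RefSeq start of Prkcz and chr2:168080754-168081003 (plus strand) for Pard6b. Those without the motif are chr11:60699450-60699699 (plus strand) for Llgl1 and chr3:30995521-30995770 (plus strand) for Prkci.
Crb3: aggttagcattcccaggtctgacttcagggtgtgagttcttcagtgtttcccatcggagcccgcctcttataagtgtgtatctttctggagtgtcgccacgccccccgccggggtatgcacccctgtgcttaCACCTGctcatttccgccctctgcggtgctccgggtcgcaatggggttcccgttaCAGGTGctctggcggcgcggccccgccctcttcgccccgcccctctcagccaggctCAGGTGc
Prkcz: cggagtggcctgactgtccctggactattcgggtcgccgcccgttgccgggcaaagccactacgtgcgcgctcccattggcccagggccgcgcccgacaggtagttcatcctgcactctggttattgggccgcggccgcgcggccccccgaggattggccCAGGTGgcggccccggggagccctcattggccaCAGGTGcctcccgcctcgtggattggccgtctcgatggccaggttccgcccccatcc
Pard6b: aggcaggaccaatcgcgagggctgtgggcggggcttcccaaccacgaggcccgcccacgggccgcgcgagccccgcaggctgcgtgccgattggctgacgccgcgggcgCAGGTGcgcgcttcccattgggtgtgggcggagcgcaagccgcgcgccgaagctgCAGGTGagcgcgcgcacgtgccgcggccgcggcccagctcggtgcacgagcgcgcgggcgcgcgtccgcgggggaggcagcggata
Llgl1: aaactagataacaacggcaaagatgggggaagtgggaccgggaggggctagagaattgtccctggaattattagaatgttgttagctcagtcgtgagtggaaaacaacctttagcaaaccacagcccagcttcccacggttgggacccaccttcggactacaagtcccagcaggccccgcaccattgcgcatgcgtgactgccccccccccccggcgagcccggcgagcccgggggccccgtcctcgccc
Prkci: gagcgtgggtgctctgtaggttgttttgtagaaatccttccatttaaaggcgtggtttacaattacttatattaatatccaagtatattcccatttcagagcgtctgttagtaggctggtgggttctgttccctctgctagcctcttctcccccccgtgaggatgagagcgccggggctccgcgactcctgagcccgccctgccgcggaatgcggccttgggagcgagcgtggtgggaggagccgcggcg

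The windows follow RefSeq, and in GENCODE M21 the Crb3 gene begins further upstream, at 57059105, a start that was not searched. The stretch of Crb3 held 3 E-boxes, whose first bases lie at -118, -63 and -7 from the transcript start at 0, and another lay past the start at 25. A second RefSeq start of Crb3, 30 bases downstream, has a window with the same 4 matches. Prkcz held 2 at the most upstream of its RefSeq starts, at -90 and -57, none in the window of the second start and 1 in that of the third. Pard6b held 2, at -141 and -86. The windows of Llgl1 and Prkci and of the upstream RefSeq start of Pard3 held none, while the window of a second Pard3 start, further downstream, held 3. E-boxes thus stood before starts of members that rose and of Pard3, which did not pass the test and whose sequences are not printed. Llgl1 rose with no E-box in its window. The E-boxes are matches of letters in the windows of 6 genes, and neither binding nor use of a start was measured.

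**Figure D3:**
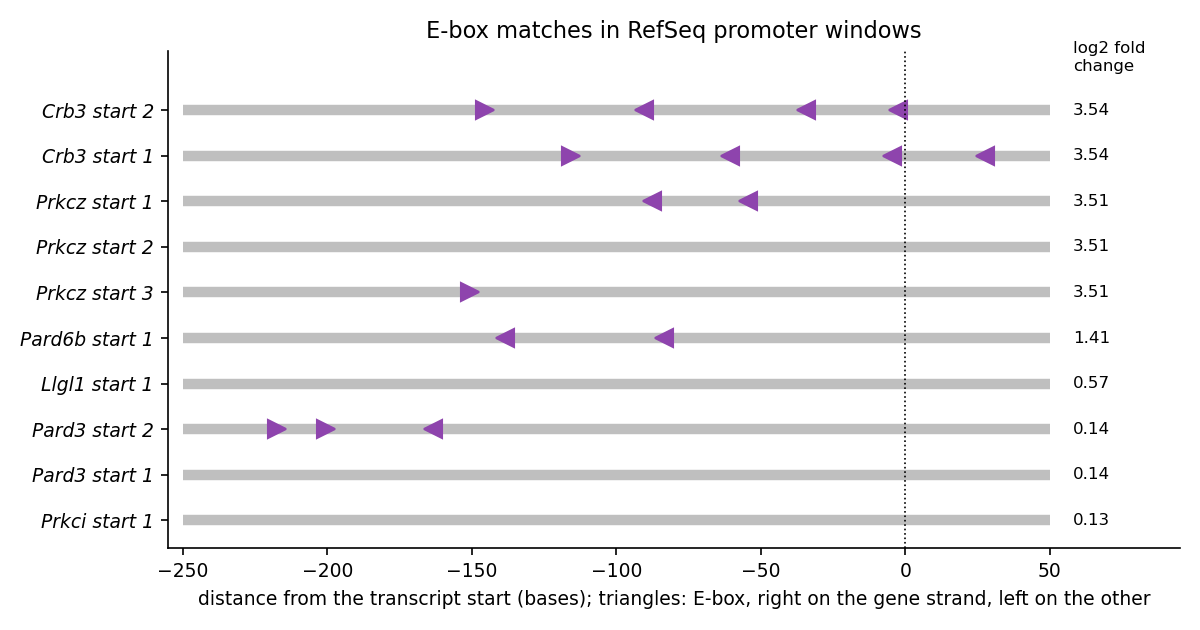
Position of E-box letters (triangles, pointing right on the strand of the gene and left on the other) in the 10 RefSeq windows of 6 polarity genes, by distance from the transcript start in bases, with the log2 fold change of the gene at the right. Both windows of Crb3 hold 4 matches, those of Llgl1, Prkci and Pard3 start 1 hold none, and that of Pard3 start 2 holds 3.

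In the Scribble module, both LGL genes were higher in KO and Scrib was lower. Llgl2, the LGL gene typical of epithelia, lies at chr11:115824049-115855780 on the plus strand (ENSMUSG00000020782). It was at 435, 478 and 428 CPM in KO libraries 1 to 3 and at 248, 254 and 244 CPM in WT libraries 1 to 3. All KO values lay above the narrow WT range. The difference between the lines was 0.84 on the log2 scale (SE 0.08, limma adjusted p = 2.3e-05), a 1.80-fold difference. Llgl1 lies on the same chromosome at chr11:60699723-60714186 on the plus strand (ENSMUSG00000020536). It was at 114, 119 and 107 CPM in KO libraries 1 to 3 and at 81.5, 76.5 and 71.4 CPM in WT libraries 1 to 3. The groups did not overlap and the difference between the lines was 0.57 on the log2 scale (SE 0.08, limma adjusted p = 0.00028). In the annotation, 64 of its 4862 exonic bases are shared with Flii on the opposite strand. Scrib, the basolateral PDZ scaffold, lies at chr15:76047158-76069784 on the minus strand (ENSMUSG00000022568). It was at 127, 130 and 120 CPM in KO libraries 1 to 3 and at 153, 180 and 175 CPM in WT libraries 1 to 3. All KO values lay below all WT values, and the log2 fold change of -0.43 with an SE of 0.08 (limma adjusted p = 0.002) left 74.2% of the WT mean.

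The makeup of each paralog family was compared on CPM per kilobase of exon (CPM per kb), since longer transcripts yield more reads. For the PAR6 family, with Pard6a included, the sum was 66.5, 71.0 and 71.2 CPM per kb in the KO libraries and 39.3, 39.3 and 48.3 CPM per kb in the WT libraries. Pard6b made 86.8% to 88.0% of it in KO and 46.1% to 62.3% in WT. Pard6g made 5.15% to 7.84% in KO and 26.1% to 34.9% in WT, and Pard6a 5.36% to 6.81% in KO and 11.6% to 18.9% in WT. The share of Pard6b was higher, and that of Pard6g lower, in every KO library than in every WT library. For aPKC, Prkci made 94.7% to 95.9% of the family in KO and 99.3% to 99.7% in WT, so the 11.1-fold difference in Prkcz concerned 4.71% ± 0.59 of the aPKC transcripts in KO and 0.493% ± 0.21 in WT (SD, n = 3 each). The summed aPKC level was 91.5 to 104 CPM per kb in KO and 78.1 to 93.3 in WT, which overlap. For LGL, the sum was 116 ± 6.7 CPM per kb in KO and 67.1 ± 1.7 in WT (SD, n = 3 each), 1.72-fold higher in KO. Llgl2 made 79.3% to 80.0% of it in KO and 75.3% to 77.5% in WT, the main LGL transcript in every library.

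**Figure D4:**
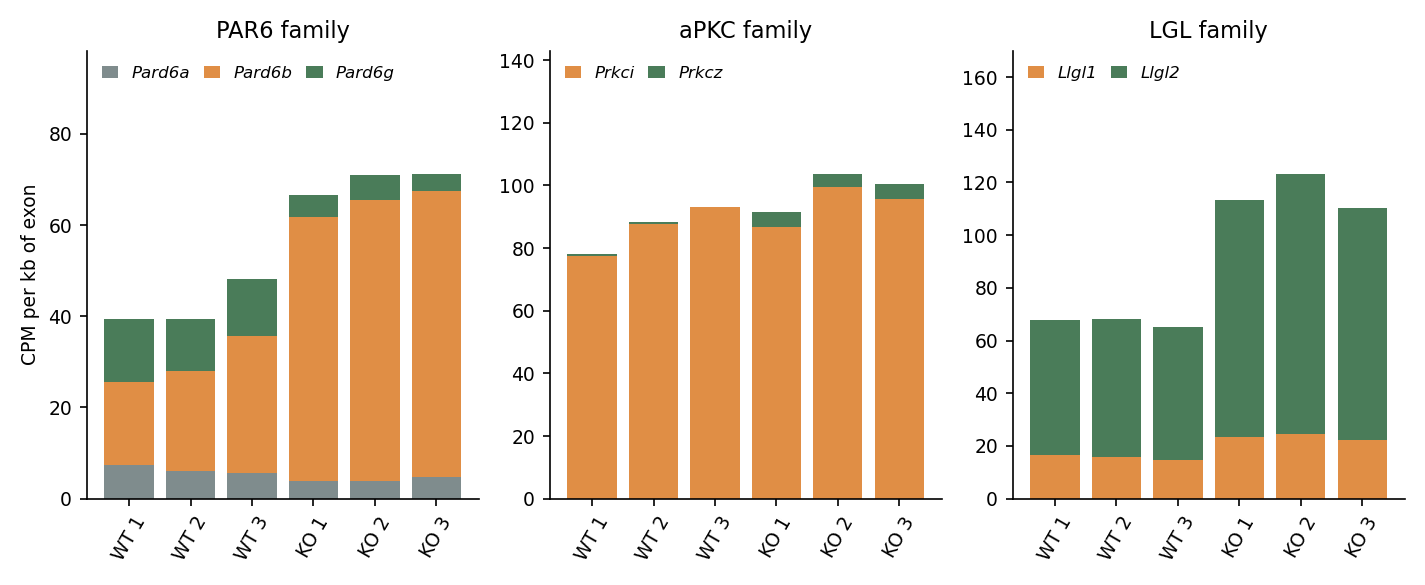
CPM per kilobase of exon of the PAR6, aPKC and LGL genes in each library, stacked by gene. Pard6b makes most of the PAR6 bar in the KO libraries, with at least 86.8%, Prkci nearly all of the aPKC bar in all 6, and the LGL bars are higher in KO with a nearly equal makeup.

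The log2 ratio of 2 paralogs was compared between the lines over the 6 libraries, for 3 pairs. The log2 ratio of Pard6b over Pard6g was 3.71 ± 0.33 in KO and 0.87 ± 0.43 in WT (SD, n = 3 each), a difference of 2.84. The log2 ratio of Prkci over Prkcz was 4.35 ± 0.19 in KO and 7.74 ± 0.60 in WT, a difference of -3.39. The log2 ratio of Llgl2 over Llgl1 was 1.98 ± 0.04 in KO and 1.71 ± 0.09 in WT, a difference of 0.27. No ratio overlapped between the lines, and an exact two-sided permutation test gave p = 0.1 for each pair (0.1 adjusted over the 3 pairs), which is the lowest p possible with 3 libraries in each group. The pairs therefore could not pass a threshold of 0.05 by this test.

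Ordered by CPM per kb, Prkci and Llgl2 were the most abundant members in both lines. In KO they were at 93.9 ± 6.5 and 92.2 ± 5.6 CPM per kb and overlapped, followed by Pard6b (60.7 ± 2.5), Crb3 (36.2 ± 2.6), Llgl1 (23.4 ± 1.2), Scrib (19.5 ± 0.82) and Pard3 (9.34 ± 1.4), each separate from the next. Pard6g (4.69 ± 0.96) and Prkcz (4.62 ± 0.33) came last in KO and overlapped. In WT the order was Prkci (86.1 ± 7.9 CPM per kb), Llgl2 (51.4 ± 1.1), Scrib (26.3 ± 2.2), Pard6b (23.4 ± 6.1), Llgl1 (15.7 ± 1.0), Pard6g (12.5 ± 1.2), Pard3 (8.40 ± 0.58), Crb3 (3.09 ± 0.28) and Prkcz (0.416 ± 0.14). Scrib and Pard6b overlapped there and all other neighbours were separate. Crb3 thus had rank 4 in KO and rank 8 in WT. The exon length of Pard3 sums 28 annotated transcripts. With the longest transcript as the length, chosen as an alternative after the data were seen, Pard3 was at 23.3 CPM per kb in KO (rank 6) and 20.96 in WT (rank 5), and Llgl2 stood above Prkci in KO.

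The partners of the complexes were taken from a list of 64 genes in 7 groups, of which 57 were listed and tested. Of these, 27 rose, 18 fell and 12 did not pass, so 78.9% were called against 68.1% of all genes tested, with a median log2 fold change of 0.23. The 57 include 8 transcription and splicing regulators, and without those 37 of 49 were called (75.5%). Some partner genes, among them Crb2 and Dlg2, passed the filter only through the line where they were high. The lists were chosen with earlier results of these data known, so no conclusion is drawn from these or the group shares. Of 14 genes of the PAR and LKB1 group, 6 rose and 6 fell (85.7% called). Pard3b, a paralog of Pard3, fell to 1.54 ± 0.74 CPM from 28.7 ± 1.0 (SD, n = 3 each, log2 fold change -4.33). The PAR3-binding Rac exchange factor Tiam1 fell to 10.5 ± 2.5 from 39.5 ± 2.9 CPM. The PAR1 family kinase gene Mark4 rose to 65.6 ± 5.3 from 39.4 ± 1.5 CPM and Cab39, a scaffold of the polarity kinase LKB1, to 173 ± 11 from 129 ± 3.7 CPM. Mark3 was at 145 ± 1.2 and 143 ± 4.5 CPM and did not pass (log2 fold change 0.02, limma adjusted p = 0.76). Pard3 made 98.5% to 99.3% of the PAR3 family per kb in KO and 78.7% to 79.9% in WT. With the longest transcript as the length, its share was 99.1% to 99.6% in KO and 85.5% to 86.3% in WT.

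Of 6 genes of the Crumbs group 3 rose and none fell, so 50% were called, below the 68.1% of all tested genes. Patj, the multi-PDZ adaptor of the Crumbs complex, rose to 232 ± 12 from 38.2 ± 1.7 CPM (log2 fold change 2.60, SE 0.07, limma adjusted p = 3.1e-08). Crb2, the Crumbs gene of the podocyte that is mutated in nephrotic syndrome, rose to 2.75 ± 0.74 from 0.407 ± 0.073 CPM (log2 fold change 2.66) and stayed low in both lines. Epb41l5, a binding partner of Crumbs proteins, was at 158 ± 7.4 and 135 ± 17 CPM and did not pass (log2 fold change 0.23, limma adjusted p = 0.068), but passed without WT replicate 1 (limma adjusted p = 0.010, with 0.010 to 0.21 over the alternatives). Mpp5, which encodes the adaptor Pals1 and was chosen for mention after its values were seen, was at 118 ± 4.8 and 135 ± 19 CPM and did not pass (log2 fold change -0.19, limma adjusted p = 0.14). Crb3 and Patj thus rose, while Mpp5, the gene of the adaptor that links the proteins of both, did not pass.

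Of 11 genes of the Scribble group 5 rose and 4 fell, so 81.8% were called against 68.1% of all tested genes. The DLG scaffold gene Dlg3 rose to 34.1 ± 2.2 from 3.58 ± 1.1 CPM and Dlg2 to 3.78 ± 0.49 from 0.114 ± 0.049 CPM, while Dlg4 fell to 24.9 ± 2.7 from 43.4 ± 4.9 CPM. Erbin, a basolateral relative of Scrib, fell to 168 ± 20 from 518 ± 39 CPM (log2 fold change -1.63). Vangl1, a planar polarity gene whose protein binds Scribble, was at 69.5 ± 10 and 67.0 ± 6.3 CPM and did not pass (limma adjusted p = 0.75). Of 7 aPKC-linked genes 5 rose and none fell (71.4% called, near the share of all tested genes). The angiomotin genes Amotl1 and Amot rose to 492 ± 53 from 120 ± 1.3 CPM and to 730 ± 218 from 249.1 ± 88 CPM, and their relative Amotl2 was at 880 ± 128 and 903 ± 40 CPM and did not pass (limma adjusted p = 0.76).

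The membrane proteins that anchor PAR3 held 1 that rose and 4 that fell of 6, so 83.3% were called against 68.1% of all tested genes. The junctional adhesion molecule gene F11r, typical of epithelial tight junctions, rose to 298 ± 18 from 123 ± 13 CPM. Its relative Jam3 fell to 2.39 ± 0.16 from 22.4 ± 1.6 CPM, and Nectin3 was at 0.915 ± 0.25 against 29.3 ± 4.0 CPM. Nectin1 was at 11.2 ± 2.0 and 8.61 ± 1.5 CPM and did not pass (limma adjusted p = 0.10), but passed without KO replicate 3 (limma adjusted p = 0.034) and after quantile normalization (limma adjusted p = 0.035), with 0.034 to 0.32 over the alternatives. Kirrel, the nephrin relative of the slit diaphragm, was chosen for mention after its values were seen and fell to 165 ± 25 from 603 ± 30 CPM (log2 fold change -1.88, limma adjusted p = 2.3e-06). Of 5 apical linkers 3 rose and none fell (60% called, below the share of all tested genes). Ezr, the linker of apical membrane proteins to actin, rose to 1292 ± 38 from 674 ± 61 CPM, and its partner Podxl, the sialomucin of the podocyte surface, to 106 ± 8.4 from 50.4 ± 4.7 CPM. The related linker Msn was at 1365 ± 111 and 1341 ± 92 CPM and did not pass (limma adjusted p = 0.86).

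**Figure D5:**
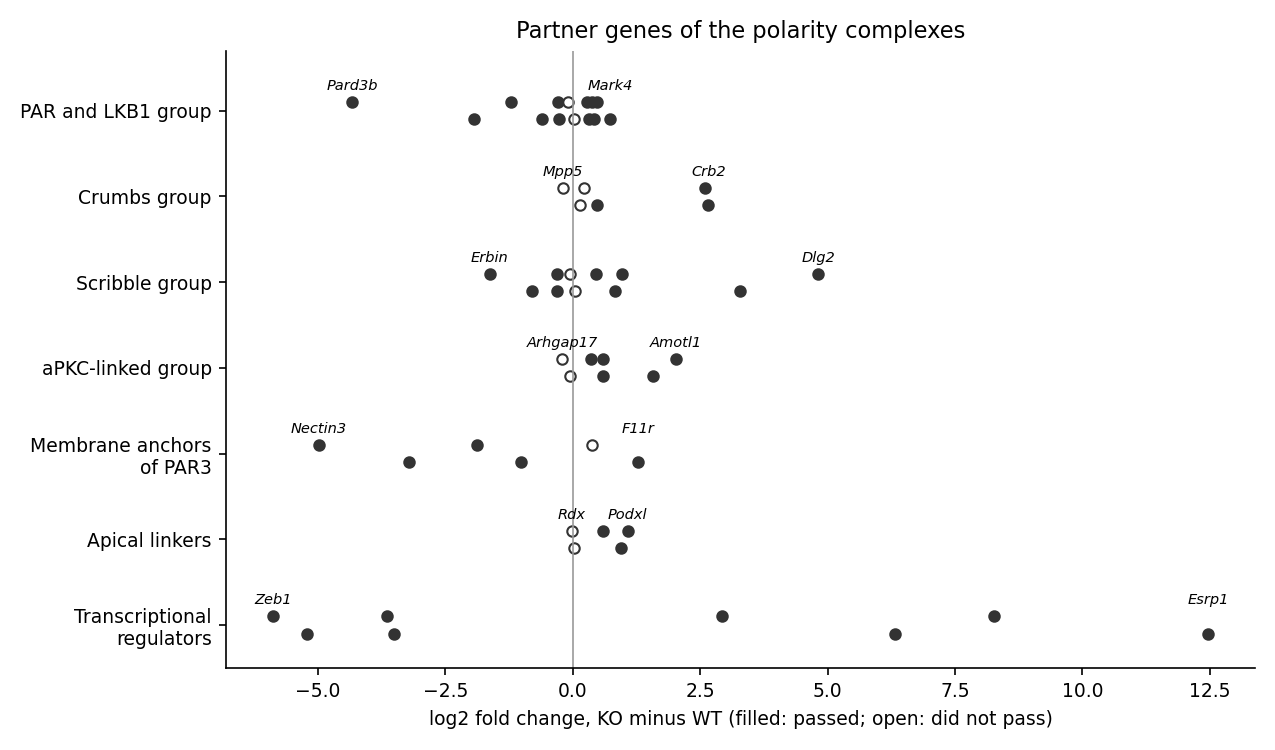
Log2 fold change, KO minus WT, of the 57 partner genes by group, with filled points for genes that passed, open points for those that did not, and the lowest and highest gene of each group named. The Crumbs, aPKC-linked and apical linker groups have no filled point below 0, with 50%, 71.4% and 60% called against 68.1% of all tested genes. Fold changes of genes near 0 reads in one line, such as Esrp1, depend on the prior.

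Of 8 transcription and splicing regulators that act on epithelial polarity genes, 4 rose and 4 fell, so all were called, against 68.1% of all tested genes. Several were near 0 reads in 1 line, so their levels are given here in place of fold changes, whose size the prior sets. Such genes, among them Grhl2, Esrp1 and Snai2, passed the filter only through the line where they were high. No conclusion is therefore drawn from the share called. The repressor genes Zeb1 and Snai2 both fell, Zeb1 to 1.71 ± 0.16 from 102 ± 0.47 CPM and Snai2 to 0.401 ± 0.16 from 15.1 ± 0.73 CPM. Binding of their proteins to the windows shown above was not measured. Grhl2, a grainyhead-like activator of epithelial genes, was at 74.3 ± 8.1 CPM in KO and 0.221 ± 0.063 CPM in WT. The splicing regulator Esrp1 was at 148 ± 1.9 CPM in KO with 0 reads in the WT libraries, where 3 reads equal 0.0703, 0.0776 and 0.0848 CPM. Their part in the levels of the 9 polarity genes was not tested.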

How the data were processed

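Stranded mRNA libraries were made with an Illumina kit, per the labels' protocols. The build GRCm38 and the tools Trimmomatic 0.39, STAR 2.7.3a, Subread 1.6.4 with featureCounts, and edgeR are named, without roles, in the submitters' processing notes. Which annotation, strand setting, filter and prior count were used is not given in the sources used here. The authors deposited 1 table of log2 CPM (log2 of counts-per-million), 1 column per library. All columns share the lowest value -5.26. Above it, 100% of values were whole multiples of 1 read within 0.001, so whole reads were worked back, and CPM in the text is those reads over the library size of the authors' scaling, without the prior.

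The test was limma 3.58.1 (R 4.3.3) on the deposited log2 values, lmFit and eBayes with an intensity trend, KO minus WT, over the 12616 genes above 0 log2 CPM in at least 3 libraries. The threshold was an adjusted p under 0.05 (Benjamini-Hochberg, over all of them). Fold changes are on the deposited log2 scale, whose prior understates those of low genes. Positions and exon lengths are from GENCODE M21 (GRCm38), in which 12673 listed symbols were found, and count from 1.

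The 9 members and the gene lists were chosen with earlier results of these data known. The text names all 9, Myo1e and, from each partner group, up to 2 genes that rose most and 2 that fell most among those passing without overlap, and the most abundant that did not pass. Alternatives were no filter, a stricter filter (above 1 log2 CPM in all 6 libraries), no trend, quantile normalization, median centring, a pseudocount of 1 CPM, voom on the recovered reads, a replicate block and leaving out each library.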

Additional observations from a re-analysis of the deposited data

How the results depend on the processing

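The 7 calls among the 9 polarity genes kept their direction and stayed past the threshold in each of 14 alternatives that tested the gene (highest adjusted p 0.013, limma), and Prkcz was not tested under the stricter filter. Pard3 and Prkci passed in none (lowest adjusted p 0.082). With the replicate block, 8395 genes passed in place of 8590, with the same counts for the 9 polarity genes (5 higher, 2 lower) and 44 partner genes in place of 45. Same-numbered libraries did not deviate together (correlations of 0.10, 0.08 and -0.10 across genes), so the numbers are not read as pairs. Leaving out 1 library gave 7573 to 8323 genes and 39 to 44 partner genes. Of the partner genes that passed, 6 lost the call in at least 1 alternative. Among the 6 partner genes that are named by the rule and did not pass, leaving out 1 library turned the sign of the log2 fold change of Amotl2 (-0.14 to 0.067, above 0 without KO replicate 1), of Msn (-0.039 to 0.076, below 0 without KO replicate 1 and, at -0.02, without WT replicate 2) and of Vangl1 (-0.039 to 0.17, below 0 without KO replicate 2 and, at -0.01, without WT replicate 3), and the cause was not tested. The differences in paralog ratio ranged from 2.61 to 3.03 for Pard6b over Pard6g, from -3.72 to -3.12 for Prkci over Prkcz and from 0.22 to 0.30 for Llgl2 over Llgl1 with 1 library left out. Among the 9 genes, Prkcz in WT rests on the fewest reads (67 to 153 per library).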
